A study of Mus musculus with 73 samples.

Results

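The comparison described here is the extraembryonic ectoderm (ExE) of wild-type mouse embryos from both directions of a cross between BDF1 and CAST, taken at E6.5. It holds 11 of the 73 samples of the series and was defined by tissue, genotype and cross. In the 7 BDF1xCAST embryos (mother named first), superovulated BDF1 oocytes were fertilised by intracytoplasmic injection of CAST sperm, and blastocysts were transferred to CD-1 females. In the 4 CASTxBDF1 embryos, CAST females had mated naturally with BDF1 males. The direction of the cross and the way the embryos were produced can therefore not be told apart in total reads. For imprinted genes the same holds for a difference in maternal share between the crosses. For strain-biased genes it holds for a difference in BDF1 share. BDF1 is the F1 hybrid of C57BL/6 and DBA, so a BDF1 parent passes on either ancestral allele at any locus and embryos of 1 cross differ genetically. BDF1xCAST had 4 males and 3 females, and CASTxBDF1 had 1 male (embryo 2) and 3 females. All embryos of both crosses were wild type. Each library was a bulk sample of the ExE of 1 embryo after removal of the visceral endoderm, in which fewer cells of a type and less RNA per cell cannot be told apart, and the epiblast of the same 11 embryos was sequenced as well.

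The ExE is the proliferating trophoblast that lies between the epiblast and the ectoplacental cone and gives rise to much of the placenta. Genomic imprinting silences 1 parental copy of a gene according to the parent it came from. Canonical imprints rest on DNA methylation laid down in a germline, mostly in oocytes. A smaller class, called noncanonical, starts from histone H3 lysine 27 trimethylation in the oocyte and is kept mainly in extraembryonic cells. A reciprocal cross separates these parental effects from strain effects, since an imprinted gene keeps its parent and a gene with a cis-regulatory difference keeps its strain when the cross is turned around. The table counts only reads that carry a polymorphism between BDF1 and CAST. The maternal share of a gene is the percentage of those reads that came from the mother's allele.

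The BDF1xCAST libraries held 2685835 to 3053690 such reads and the CASTxBDF1 libraries 3355245 to 3720984, without overlap. The BDF1 share of autosomal reads was 56.9% to 57.7% in BDF1xCAST and 56.1% to 57.3% in CASTxBDF1. Of the ExE markers, Elf5 averaged 265 CPM (the read count scaled to the total of its library) in BDF1xCAST and 371 CPM in CASTxBDF1, Tfap2c 230 and 243 CPM, and Esrrb 35.1 and 31.4 CPM, whereas Furin was near 0. Eomes, with 115 and 100.4 CPM, was almost as high in the epiblast (99.7 and 87.4 CPM). Of 10 epiblast markers, Fgf5, Otx2, Nanog, Tdgf1 and Slc7a3 averaged at most 2.57 CPM in ExE, against 382, 40.1, 93.4, 511 and 314 CPM in BDF1xCAST epiblast. Pim2 averaged 28.6 and 29.9 CPM in ExE against 381 and 282 CPM in epiblast. Utf1, Dppa4 and Pou3f1 averaged higher in ExE than in epiblast, and Pou5f1 was at or near 0 in both tissues. Visceral endoderm markers summed to 10.7 to 33.7 CPM over the 11 libraries. Of 10 decidua markers, Prl8a2, Hand2, Dcn, Prl3c1, Col1a1 and Col3a1 were at 0 in every ExE library, Des and Pgr averaged under 0.5 CPM, Vim 2.17 and 0.220 CPM, and Cryab 6.26 and 9.20 CPM.

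Libraries that stand apart were BDF1xCAST embryos 6 and 8, both female, and CASTxBDF1 embryo 2, a male. Their root mean square deviation from the mean of their cross was 0.72, 0.64 and 0.55 on a log2(CPM + 0.5) scale, against 0.33 to 0.43 in the other 8 libraries. Deviations of BDF1xCAST embryos 6 and 8 correlated with each other (r = 0.32 across genes, which are not independent). In the epiblast, CASTxBDF1 embryo 2 held 3064 CPM of visceral endoderm markers, against at most 608 CPM in the other 10 embryos. Results that rest on these libraries are given with and without them. Fits without them leave the sexes of the crosses more uneven, so sex and cross are harder to tell apart there.

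Upstream sequence is shown for 4 paternally expressed genes, since the canonical and the noncanonical class are held to differ in how they are marked. The hexamer TGCCGC, read on both strands (GCGGCA on the other), is the core bound by the zinc finger protein ZFP57, which protects canonical imprints. Each line gives the 250 bases before a RefSeq start in GRCm38.p6, written 5′ to 3′ along the gene, with matches in capitals. The windows are those of Mcts2 (chr2:152686898-152687147, plus strand) and Mest (chr6:30737800-30738049, plus strand), both canonical, and of Sfmbt2 (chr2:10370201-10370450, plus strand) and Gab1 (chr8:80880520-80880769, minus strand), both noncanonical.
Mcts2: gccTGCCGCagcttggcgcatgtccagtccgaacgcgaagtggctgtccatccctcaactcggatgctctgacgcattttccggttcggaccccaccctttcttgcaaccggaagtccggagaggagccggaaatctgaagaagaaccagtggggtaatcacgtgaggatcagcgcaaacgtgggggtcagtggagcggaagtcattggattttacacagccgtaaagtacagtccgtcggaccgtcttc
Mest: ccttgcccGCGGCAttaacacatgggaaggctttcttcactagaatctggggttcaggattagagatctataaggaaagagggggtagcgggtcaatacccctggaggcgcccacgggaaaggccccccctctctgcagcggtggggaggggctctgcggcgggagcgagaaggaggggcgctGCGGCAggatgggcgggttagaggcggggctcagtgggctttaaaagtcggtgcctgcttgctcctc
Sfmbt2: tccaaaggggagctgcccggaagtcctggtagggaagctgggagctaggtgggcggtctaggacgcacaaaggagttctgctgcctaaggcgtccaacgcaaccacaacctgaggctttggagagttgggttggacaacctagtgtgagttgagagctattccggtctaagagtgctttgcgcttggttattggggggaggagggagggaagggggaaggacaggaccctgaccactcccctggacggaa
Gab1: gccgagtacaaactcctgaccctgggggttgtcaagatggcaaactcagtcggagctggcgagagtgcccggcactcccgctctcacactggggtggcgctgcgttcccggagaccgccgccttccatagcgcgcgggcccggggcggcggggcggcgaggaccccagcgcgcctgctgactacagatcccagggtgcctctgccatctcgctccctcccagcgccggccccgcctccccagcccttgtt
Mcts2 has 1 match, Mest 2, and Sfmbt2 and Gab1 none in these windows. Of all 32851 upstream windows of this length, 8.68% hold the hexamer. Among the genes called imprinted below, it occurred for 1 of 11 maternally expressed genes with a window (Meg3, 13 windows in all). Of 6 canonical paternally expressed genes (11 windows), 2 held it, Mcts2 and Mest, so the printed canonical pair does not stand for its class. It occurred for 0 of 4 noncanonical genes in 11 windows, and 2 of 10 unlisted paternally expressed genes in 17 windows (Cdkl4 and Fkbp6). These counts are per gene and the share over all windows is per window, so they cannot be compared directly. A difference between the classes was not tested.

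The first question was which genes follow the parent when the cross is reversed. A model with 1 term for the mother's allele and 1 term for the BDF1 allele was fitted to the maternal and paternal counts of 8654 autosomal genes (edgeR's quasi-likelihood test). The parental term passed an adjusted p of 0.05 for 72 genes, 0.832% of those tested, 27 toward the mother (0.312%) and 45 toward the father (0.52%). Imprinted genes had, in addition, to reach a mean maternal share of 70% or more, or of 30% or less, whichever way the cross was made. This left 43 genes (0.497%), 13 expressed from the maternal allele (0.15%) and 30 from the paternal allele (0.347%). For 32 of the 43 both cross means were past 90% or below 10%, and for 42 all libraries with at least 10 reads lay on the same side of 50%. The exception was Cdkl4. The list of known imprinted genes had 37 members tested, of which 27 passed the parental term, all 27 toward the listed parent, and 25 were called imprinted.

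**Figure D1:**
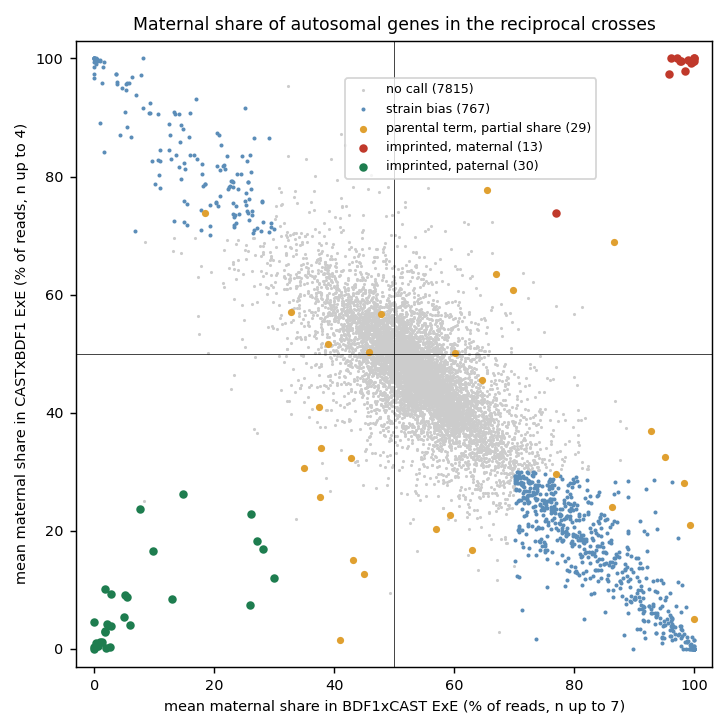
Mean maternal share of each of the 8654 autosomal genes in BDF1xCAST ExE (x axis, % of reads, 7 libraries) against CASTxBDF1 ExE (y axis, % of reads, 4 libraries), coloured by call. The 13 maternally and 30 paternally expressed genes sit in the upper right and lower left, and strain-biased genes run along the falling diagonal. The 29 genes with a partial parental bias lie between them or near that diagonal.

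Of the maternally expressed genes, 7 lie on distal chromosome 7 between Ascl2 and Phlda2, the Kcnq1 domain, and 3 (Meg3, Rian and Mirg) in the Dlk1-Meg3 domain of chromosome 12. H19 (chromosome 7, 142575530 to 142578146, mm10), a noncoding RNA that shares an imprinting control region with Igf2, had the most reads. Its maternal share ran from 95.0% to 100% with a median of 100% in BDF1xCAST, and was 100%, 99%, 100% and 100% in the CASTxBDF1 embryos 1 to 4 (edgeR adjusted p 8.89e-09). The crosses overlapped near complete maternal expression. Shares of H19, Phlda2, Slc38a4 and Gm32885 come from a ratio rounded to whole percentage points in every library, so differences of 1 point among their values cannot be read. Phlda2 (143501545 to 143503145), a restrainer of placental growth, had 93.0% to 99% with a median of 99% in BDF1xCAST, and 99%, 100%, 100% and 99% in CASTxBDF1 (edgeR adjusted p 2.65e-11). The strain term of Phlda2 also passed (edgeR adjusted p 0.00517), and BDF1xCAST embryo 6 held its lowest maternal share.

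Ascl2 (chromosome 7, 142966822 to 143008033), the transcription factor needed for the ectoplacental cone and spongiotrophoblast, had 97.6% to 100% with a median of 100% in BDF1xCAST. The CASTxBDF1 embryos had 99.4%, 97.9%, 100% and 100% (edgeR adjusted p 5.15e-14). Ascl2 overlaps Tspan32 in the annotation, and the part of Tspan32 in its reads was not tested. Cd81 (143052750 to 143067930), a tetraspanin of the cell surface, had 91.8% to 100% with a median of 98.4%, and 99.5%, 99.2%, 99.7% and 99.8% in the reverse cross (edgeR adjusted p 1.51e-12). R74862 (143021784 to 143053686) overlaps the edge of Cd81 on the genome. How far its call rests on reads shared with Cd81 was not tested. Their neighbours Tssc4, Slc22a18 and Cdkn1c, the last an inhibitor of cyclin-dependent kinases, had means of 95.8% to 99.5% in BDF1xCAST and 97.4% to 100% in CASTxBDF1. Grb10, an adaptor that dampens growth factor signalling, stood at 98.4% ± 1.76 (SD, n = 7) and 97.9% ± 2.49 (n = 4).

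The remaining maternal call was the T-box factor T (chromosome 17, 8422178 to 8442496), a marker of the primitive streak that is not among the listed imprinted genes. Its maternal share ran from 66.7% to 93.2% with a median of 75.0% in BDF1xCAST, and was 74.8%, 77.8%, 63.6% and 79.2% in CASTxBDF1 (edgeR adjusted p 1.93e-05). All 11 libraries lay above 50%, and the strain term did not pass (edgeR adjusted p 0.462). T overlaps T2 in the annotation, so reads of the pair cannot be separated.

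Among canonical paternally expressed genes, Peg3 (chromosome 7, 6703892 to 6730441), a zinc finger protein, had the most reads. Its maternal share was 0% to 9.82% with a median of 0.152% in BDF1xCAST, and 0%, 0%, 0% and 0.735% in CASTxBDF1 (edgeR adjusted p 3.08e-10). BDF1xCAST embryo 3 held the highest value. Mest (chromosome 6, 30733506 to 30748466), a hydrolase expressed in mesoderm and trophoblast, had 0.820% to 5.94% with a median of 2.04%, and 0%, 7.14%, 8.33% and 0% (edgeR adjusted p 4.10e-10). Mcts2 (chromosome 2, 152687148 to 152687946), a retrogene within an intron of H13, had 0% to 3.00% with a median of 0%, and 0%, 0%, 0% and 3.03% (edgeR adjusted p 1.15e-11). Sgce (chromosome 6, 4674350 to 4747204), a sarcoglycan, had 0% to 2.63% with a median of 0.926%, and 0%, 2.44%, 2.38% and 0% (edgeR adjusted p 4.52e-12). In these 4 genes the maternal allele was at or under 10% in every library of both crosses.

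Peg10, Kcnq1ot1 and Snhg14 were likewise almost silent on the maternal allele, with cross means from 0% to 4.46%. The growth factor gene Igf2 was less complete. Its maternal share ran from 3.70% to 46.7% with a median of 31.8% in BDF1xCAST, and was 11.7%, 9.72%, 11.6% and 15.3% in CASTxBDF1 (edgeR adjusted p 7.69e-06). Igf2 averaged 53.8 reads per library and overlaps Igf2os. Impact, a regulator of translation on chromosome 18, had 14.8% ± 7.82 (SD, n = 7) and 26.2% ± 10.7 (n = 4). Igf2 and Igf2os, at 30.0% and 27.2% in BDF1xCAST, were just inside the limit of 30%, and Pnldc1, at 86.6% and 69.0%, was just outside that of 70%.

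All 5 noncanonical genes tested were called, each from the paternal allele. Sfmbt2 (chromosome 2, 10370437 to 10595253), a Polycomb-group protein needed for trophoblast, had a maternal share of 0% to 0.199% with a median of 0% in BDF1xCAST and 0% in each of the 4 CASTxBDF1 embryos (edgeR adjusted p 1.29e-17). Slc38a4 (chromosome 15, 96994823 to 97055956), a placental amino acid transporter, had 0% to 1.03% with a median of 0.971%, and 0%, 1.00%, 0.975% and 0% (edgeR adjusted p 9.45e-14). The windows of Sfmbt2 and Gab1 are those printed above. Gab1 (chromosome 8, 80764431 to 80880519), an adaptor of receptor tyrosine kinases, had 2.04% to 10.9% with a median of 4.78%, and 2.05%, 7.63%, 3.85% and 2.41% (edgeR adjusted p 7.80e-13). Jade1 (chromosome 3, 41555734 to 41616864), a subunit of a histone acetyltransferase complex, had 3.66% to 8.75% with a median of 5.23%, and 7.47%, 10.5%, 8.95% and 7.91% (edgeR adjusted p 5.15e-14). Smoc1, a secreted matrix protein, stood at 2.65% ± 2.22 (SD, n = 7) and 0.385% ± 0.769 (n = 4). The maternal share was thus at least 2.04% in all 11 libraries for Gab1 and Jade1. For Sfmbt2 the count of each allele was recovered exactly in 1 library only, that with 0.199%, and its other 10 values are known to within 0.5 percentage points.

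Of the 43 imprinted genes, 18 were not on the list, 16 of them paternally expressed. Some belong to listed loci, such as Snrpn-Snurf and the noncoding RNA Igf2os, which overlaps Igf2. Several lie within 250 kb of a noncanonical gene, namely Gm13261 beside Sfmbt2, Gm32885 beside Slc38a4, and Gm40040, Platr4 and 2400006E01Rik beside Jade1. Gm32885 (chromosome 15, 97157117 to 97167278) had the most reads of the unlisted genes. Its maternal share was 1.99% to 7.00% with a median of 2% in BDF1xCAST, and 2.99%, 25.0%, 6.00% and 3.01% in CASTxBDF1 (edgeR adjusted p 7.99e-10). The value of 25.0% came from CASTxBDF1 embryo 2. 2400006E01Rik (chromosome 3, 41500931 to 41528474) had 0.962% to 3.85% with a median of 1.98%, and 1.90%, 10.6%, 3.09% and 1.12% (edgeR adjusted p 3.49e-12), again with the same embryo highest.

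Gm13261 (chromosome 2, 10327340 to 10365161) had 0% to 1.92% with a median of 0%, and 0.515%, 0%, 0% and 3.12% (edgeR adjusted p 7.80e-13). Slc38a1 (chromosome 15, 96571418 to 96642913), a glutamine transporter of the same family as Slc38a4, showed a weaker bias. Its maternal share was 12.5% to 40.9% with a median of 29.0%, and 23.8%, 6.03%, 33.2% and 28.2% (edgeR adjusted p 8.65e-05). The other unlisted paternal calls away from listed loci were Fkbp6, Cdh15, Platr20, Zfp473, Galnt6, Cdkl4, Gm3134 and LOC108167542, the last 2 of which overlap each other. Fkbp6, a co-chaperone, stood at 4.99% ± 3.47 (SD, n = 7) and 5.34% ± 4.78 (n = 4), and the cell adhesion gene Cdh15 at 1.74% ± 1.77 and 10.2% ± 9.40. Cdkl4 averaged 24.8 reads and ranged from 4.00% to 60% in BDF1xCAST. By position, 40 of the 72 genes with a parental term had another such gene within 250 kb, in 14 groups that include overlapping pairs. The count was not taken for other sets of 72 tested genes, so it does not measure clustering.

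**Figure D2:**
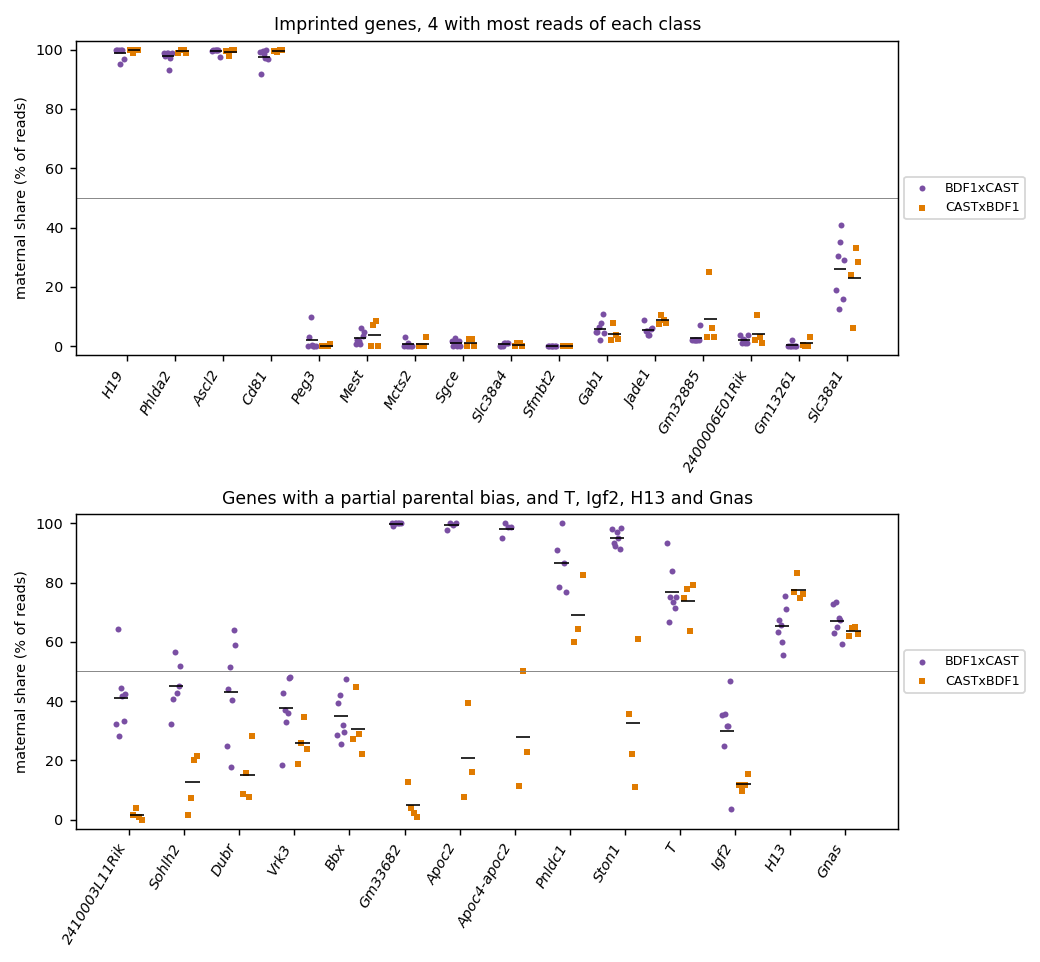
Maternal share (y axis, % of reads) of each gene in each library with at least 10 reads, with a black line at the mean of the cross. The upper panel holds the 4 genes with the most reads of each imprinted class, which lie near 100% or 0% in both crosses except Slc38a1, and the lower panel holds the genes with a partial bias, whose 2 crosses often stand apart, with T, Igf2, H13 and Gnas beside them.

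A further 29 genes passed the parental term without reaching the limits, 14 toward the mother and 15 toward the father. In 16 of them the mean maternal share lay on opposite sides of 50% in the 2 crosses, and 22 also passed the strain term. For these 16 the parental term reflects a difference in BDF1 share between the crosses. Parent of origin can therefore not be told apart there from the way the embryos were produced. Of the 29 genes, 2 are listed. H13, a signal peptide peptidase whose intron holds Mcts2, had 65.4% ± 6.63 maternal reads (SD, n = 7) and 77.6% ± 3.70 (n = 4, edgeR adjusted p 4.78e-06). Gnas, the stimulatory G protein subunit, had 67.0% ± 5.08 and 63.6% ± 1.54 (edgeR adjusted p 5.91e-05).

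The largest paternal ratio was that of 2410003L11Rik (chromosome 11, 97598511 to 97622893). Its maternal share was 28.3% to 64.3% with a median of 41.7% in BDF1xCAST, and 1.43%, 4.00%, 0.769% and 0% in CASTxBDF1 (edgeR adjusted p 1.28e-07). The crosses did not overlap. Its BDF1 allele averaged 5.42 CPM when maternal and 34.6 CPM when paternal, and its CAST allele 0.683 CPM when maternal and 7.62 CPM when paternal. 2410003L11Rik overlaps Gm38962 in the annotation, and the part of Gm38962 in its reads was not tested. Sohlh2, a helix-loop-helix factor of the germline, had 32.2% to 56.6% with a median of 44.0% in the 6 BDF1xCAST embryos with at least 10 reads, and 1.75%, 7.30%, 20.2% and 21.4% (edgeR adjusted p 0.000117). Dubr, a noncoding RNA, had 17.9% to 63.8% with a median of 44.1%, and 8.70%, 15.7%, 7.79% and 28.1% (edgeR adjusted p 0.00517). With limma the adjusted p of Sohlh2 and of Dubr was 0.0513, and in females alone that of Dubr was 0.0907 (edgeR).

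Vrk3, a kinase gene adjacent to Zfp473, had 18.5% to 48.3% with a median of 37.0%, and 18.9%, 25.8%, 34.6% and 23.8% (edgeR adjusted p 0.000235). Bbx, a high mobility group protein, had 25.5% to 47.4% with a median of 31.9%, and 27.1%, 44.6%, 29.0% and 22.1% (edgeR adjusted p 0.00170). Vrk3 and Bbx were below 50% in all 11 libraries, unlike Sohlh2 and Dubr.

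The 5 largest maternal ratios were those of Gm33682, Apoc2, Apoc4-apoc2, Pnldc1 and Ston1. All except Pnldc1 passed the strain term as well, and none of the 5 passed the parental term with limma (adjusted p 0.0714 to 0.213). Gm33682 (chromosome 12, 108761731 to 108767874) had 99.1% to 100% maternal reads in BDF1xCAST, and 12.8%, 4.04%, 2.40% and 1.01% in CASTxBDF1 (edgeR adjusted p 0.00295). Its parental term did not pass without BDF1xCAST embryos 6 and 8 (edgeR adjusted p 0.0902). Apoc2, an apolipoprotein that activates lipoprotein lipase, had 97.9% to 100% in 4 BDF1xCAST embryos, and 7.50%, 39.4% and 16% in 3 CASTxBDF1 embryos, embryo 3 having under 10 reads (edgeR adjusted p 0.00517). It shares its reads with the readthrough transcript Apoc4-apoc2. Ston1, a clathrin adaptor, had 91.3% to 98.3% with a median of 94.9%, and 35.7%, 22.2%, 11.1% and 61.1% (edgeR adjusted p 0.0106). The call of Ston1 was lost without CASTxBDF1 embryo 4 (edgeR adjusted p 0.179), and without BDF1xCAST embryos 6 and 8 its edgeR adjusted p was 0.0572. Pnldc1, a nuclease that trims germline small RNAs, had 76.9% to 100% in 5 BDF1xCAST embryos and 60%, 64.3% and 82.6% in 3 CASTxBDF1 embryos (edgeR adjusted p 0.0262), from an average of 12.4 reads. Its call was lost in 2 of the 8 fits without 1 library that still tested it, and 3 such fits had too few reads to do so.

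Listed genes that were tested without passing the parental term numbered 10. Pon2, a paraoxonase listed as maternal, had 96.0% ± 2.41 maternal reads (SD, n = 7) in BDF1xCAST and 3.78% ± 1.95 (n = 4) in CASTxBDF1, so its bias followed the BDF1 allele (strain term, edgeR adjusted p 1.80e-12). Ppp1r9a, Copg2, Blcap, Trappc9, Peg12, Inpp5f and Ddc averaged 16.6 to 42.1 reads per library, with cross means between 32.4% and 63.4%. Nap1l4 and Commd1, with 179 and 93.6 reads, had 54.8% and 47.2% in BDF1xCAST and 51.8% and 47.4% in CASTxBDF1. Of the 74 listed genes, 70 were found in the table by name, and those not tested, among them Igf2r and Airn, had too few reads over polymorphisms.

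The second question was how much of the allelic imbalance follows the strain. The strain term passed for 4255 of the 8654 genes (49.2%), 3380 toward BDF1 and 875 toward CAST. Under the same limits of 70% and 30%, set on the mean BDF1 share, 773 genes (8.93%) were called strain-biased, 620 toward BDF1 and 153 toward CAST. Both terms passed for 32 genes, the parental term alone for 40 and the strain term alone for 4223. Of the 43 imprinted genes, 10 had a strain term as well. Jade1 was one of these, with a maternal share of 5.44% ± 1.72 when the mother was BDF1 and 8.71% ± 1.36 when she was CAST (strain term, edgeR adjusted p 0.0216). For an imprinted gene this term reflects the difference in maternal share between the crosses. Strain can therefore not be told apart there from the way the embryos were produced. The median strain log2 ratio over all genes was 0.22 toward BDF1, and that of the parental term was 0.0057. The alleles were not scaled to each other, so this general shift is part of the strain counts above.

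Complete strain bias was seen for several genes. Ftl1 (chromosome 7, 45457944 to 45459886), the ferritin light chain, had 34267 reads per library on average and 100% from BDF1 in all 11, to within the rounding of 0.5 percentage points. Uchl4, a ubiquitin hydrolase retrogene on chromosome 9, Gm12338, and the pair Gadl1 and Gm9385, which overlap, were also at 100% BDF1 in all 11 libraries. Toward CAST, the chemokine Ccl9 (chromosome 11, 83572917 to 83578636) had 0% BDF1 reads in the 7 BDF1xCAST embryos and 0.0706% ± 0.141 (SD, n = 4) in CASTxBDF1 (edgeR adjusted p 7.01e-14). Gm8615, Gm6485, Gm5566 and Gm40123 had mean BDF1 shares of at most 0.521%. Of 59 genes past 99% or below 1% BDF1 in both crosses, 46 matched a RefSeq symbol and 16 of these (34.8%) were pseudogenes, against 0.889% of all 8208 tested genes that matched. Genes with near-identical copies can receive the reads of those copies, which makes their shares uncertain. Whether the genes named here have such copies was not tested.

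The third question was whether imprinting in ExE differs from that in the epiblast of the same embryos. The parental term differed between the tissues for 24 of 7568 genes (0.317%) in a fit over all 22 libraries. The epiblast library of BDF1xCAST embryo 8 held 1311863 reads, against 2372314 to 3028267 in the other epiblast libraries. Its reads fell on 20567 genes, against 14136 to 16030 genes in the others. Of the 43 ExE imprinted genes, 29 could be tested in both tissues, and 14 of these differed, 13 with the stronger bias in ExE. The 43 genes were chosen by their bias in ExE, so this direction follows in part from the choice, and genes imprinted in the epiblast alone could not enter. Among listed genes outside the 43, Inpp5f, a phosphoinositide phosphatase, had 24.4% ± 4.79 (SD, n = 7) and 37.7% ± 8.02 (n = 4) maternal reads in epiblast, against 46.7% ± 11.3 and 61.3% ± 8.51 in ExE (edgeR adjusted p for the difference 0.00135). In BDF1xCAST and CASTxBDF1 epiblast, Tssc4 had 63.5% ± 10.2 (SD, n = 7) and 42.6% ± 11.1 (n = 4) maternal reads, Ascl2 65.6% and 78.6%, and T 54.2% and 47.7%. The paternally expressed Slc38a1 had 46.2% ± 3.91 and 55.4% ± 2.23 there, and Platr4 25.5% ± 7.49 and 33.1% ± 20.3. Epiblast shares of Sfmbt2 stood apart by cross, at 58.2% ± 24.8 (n = 5) and 14.8% ± 16.9 (n = 4). The exception was Impact, whose maternal share was 3.48% ± 1.38 and 2.39% ± 2.56 in epiblast, below its ExE values (edgeR adjusted p for the difference 6.07e-06). Grb10, Meg3, Rian, Mest, Mcts2, Peg3, Kcnq1ot1 and Snrpn-Snurf were among the 15 whose difference did not pass. Without CASTxBDF1 embryo 2, whose epiblast held the visceral endoderm markers, 22 genes passed, 20 of them among the 24. Without CASTxBDF1 embryo 3, or without embryo 4, 14 passed.

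**Figure D3:**
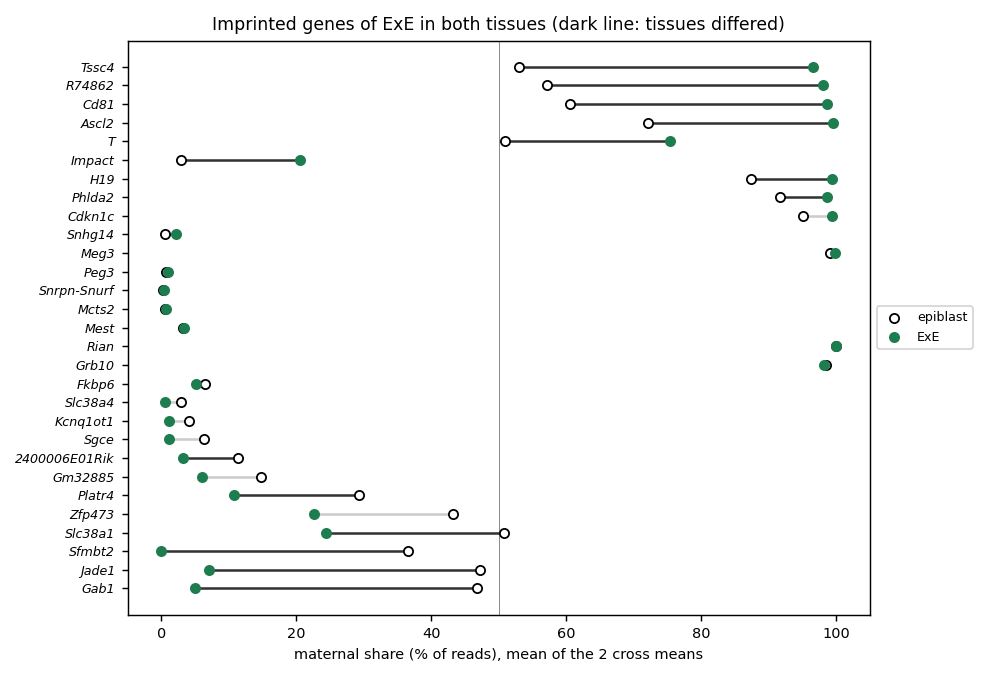
Maternal share (x axis, % of reads, mean of the 2 cross means) of the 29 imprinted ExE genes that could be tested in both tissues, with open circles for epiblast and green circles for ExE. Dark lines join the tissues for the 14 genes that differed, of which Gab1, Jade1, Sfmbt2, Cd81, R74862 and Tssc4 lay farthest apart. The epiblast point of Sfmbt2 averages 58.2% in BDF1xCAST (n = 5) and 14.8% in CASTxBDF1 (n = 4).

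Total reads were then compared between the crosses. Of 9241 autosomal genes, 22 differed (0.238%, edgeR adjusted p under 0.05), 18 higher in CASTxBDF1 (0.195%) and 4 lower (0.0433%), and 20 of the 22 did not overlap between the crosses, against 3.11% of all genes tested. This count was fragile. Leaving out 1 library at a time gave 2 to 64 genes, with 2 left without CASTxBDF1 embryo 4 and 64 found without BDF1xCAST embryo 6. Without BDF1xCAST embryos 6 and 8 the count was 358, and without these and CASTxBDF1 embryo 2 it was 588, with all 22 among them both times. Embryos 6 and 8 are female and CASTxBDF1 embryo 2 is the only male of its cross, so sex and cross overlap more in these fits. In females alone, which keep BDF1xCAST embryos 6 and 8, edgeR called 0 genes, with 1124 at an unadjusted p under 0.05. DESeq2 called 186 over all embryos. The 10 largest increases without overlap and all 4 decreases are described below.

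Cited2, a transcriptional co-regulator needed for placental development, had 0.333 to 3.94 CPM with a median of 2.75 in BDF1xCAST, and 16.1, 8.87, 8.21 and 23.3 CPM in CASTxBDF1. It rose 5.95-fold (log2 2.57, SE 0.48, edgeR adjusted p 0.0430). Ppp1r3b, a glycogen-targeting phosphatase subunit, had 0.357 to 2.15 CPM with a median of 1.49, and 4.47, 5.11, 5.38 and 9.33 CPM (4.27-fold, edgeR adjusted p 0.0430). Fah, the last enzyme of tyrosine breakdown, had 2 to 13 CPM with a median of 6.43, and 28.3, 16.4, 23.8 and 26.6 CPM (3.40-fold, edgeR adjusted p 0.0449). None of these 3 genes overlapped between the crosses, though all were of low level.

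Lgals3, a galactose-binding lectin, had 8.58 to 35.5 CPM with a median of 21.6, and 53.6, 89.2, 70.8 and 66.1 CPM (3.16-fold, edgeR adjusted p 0.0189). Trappc6a, part of a vesicle tethering complex, had 33.7 to 60.8 CPM with a median of 45.4, and 113, 164, 136 and 124 CPM (2.88-fold, edgeR adjusted p 0.00242). Aldoc, an aldolase of glycolysis, had 18.2 to 55.3 CPM with a median of 32.7, and 84.9, 79.8, 111 and 85.9 CPM (2.46-fold, edgeR adjusted p 0.0430). Immp2l, Ppp1r35, Gm12942 and 2410003L11Rik rose by 2.43-fold to 2.92-fold. In the epiblast the log2 differences of Aldoc and Trappc6a were 1.87 and 0.96 in the same direction, where no gene passed in edgeR (0 of 9368, and 653 with an unadjusted p under 0.05).

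Toward BDF1xCAST, Ifrd1, a regulator of differentiation, had 70.0 to 109 CPM with a median of 96.2, and 41.1, 43.8, 38.0 and 52.1 CPM in CASTxBDF1 (0.461-fold, edgeR adjusted p 0.0109). Cdh15 had 30.2 to 56.2 CPM with a median of 32.5, and 2.98, 15.0, 14.4 and 11.8 CPM (0.266-fold, edgeR adjusted p 0.0430). Ston1 had 15.1 to 42.9 CPM with a median of 19.7, and 4.17, 4.84, 5.10 and 4.94 CPM (0.207-fold, edgeR adjusted p 0.0189). Gm31704 overlaps Ston1 and cannot be separated from it.

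**Figure D4:**
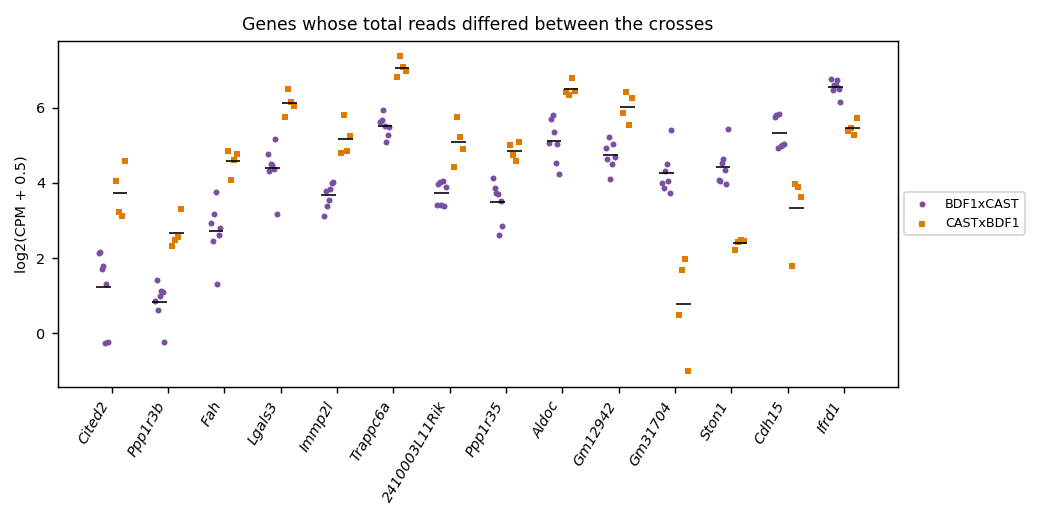
Total reads of the 14 described genes in each library, as log2(CPM + 0.5) on the y axis, with a black line at the mean of the cross. In each gene the 4 CASTxBDF1 libraries lie on one side of all 7 BDF1xCAST libraries.

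The alleles behind 3 of these differences were uneven. Cdh15, the only one of the 43 imprinted genes among the 22, gave 41.0 CPM from the paternal CAST allele in BDF1xCAST and 10.2 CPM from the paternal BDF1 allele in CASTxBDF1, while the maternal allele gave 0.639 and 0.891 CPM. In Ston1 the BDF1 allele gave 21.5 CPM when maternal and 3.22 CPM when paternal, and the CAST allele 1.54 and 0.985 CPM. For 2410003L11Rik the rise lay on the paternal BDF1 allele described above. In Ifrd1, by contrast, the maternal and paternal alleles were at 47.6 and 46.3 CPM in BDF1xCAST and at 23.5 and 20.3 CPM in CASTxBDF1. None of the 773 strain-biased genes was among the 22, which is near the share of 0.238% over all genes tested. The median absolute log2 difference was 0.41 over the 43 imprinted genes and 0.22 over all genes tested. These medians were not matched for depth. Imprinted genes with few reads, such as Mirg and Rian (11.8 and 17.4 on average), had standard errors of 0.47 and 0.49.

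Lists of pathway genes were described by counts at an unadjusted p under 0.05, which 6.33% of all genes reached toward CASTxBDF1 and 5.39% toward BDF1xCAST in the edgeR fit. Of 20 glycolysis and hypoxia genes, 13 reached it toward CASTxBDF1 and none the other way, with a median log2 difference of 0.62 against -0.013 over all genes. None passed after adjustment. Ankrd37, a hypoxia-induced gene, had 180 to 260 CPM with a median of 193 in BDF1xCAST, and 387, 417, 411 and 266 CPM in CASTxBDF1 (edgeR adjusted p 0.0505). The glucose transporter Slc2a1 had 124 to 231 CPM with a median of 191, and 381, 356, 316 and 276 CPM (edgeR adjusted p 0.0553). Without BDF1xCAST embryos 6 and 8 the median was 0.42 and 5 of the 20 passed, and without CASTxBDF1 embryo 2 as well it was 0.54 and 13 passed. Of all genes, 3.96% and 6.38% passed in these fits. With a term for sex, 9 of the 20 reached an unadjusted p under 0.05 toward CASTxBDF1, and 2 passed (Ankrd37 and Slc2a1). Of all genes, 0.444% passed in that fit. In the epiblast 4 of 17 reached an unadjusted p under 0.05 toward CASTxBDF1, with a median of 0.35, against 4.11% of all genes.

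Of 18 cholesterol synthesis genes, 6 reached an unadjusted p under 0.05 toward CASTxBDF1 (median 0.38, none after adjustment), and 3 did without CASTxBDF1 embryo 2. The synthase gene Fdps had 91.1 to 133 CPM with a median of 105, and 178, 199, 161 and 118 CPM (edgeR adjusted p 0.192). In the epiblast 13 of the 18 reached it toward CASTxBDF1, with a median of 0.74, against 4.11% of all genes. Cell cycle genes (21 tested, median -0.091), cytosolic ribosomal proteins (20, median 0.0095) and epigenetic regulators (19, median 0.0020) had at most 2 members in either direction. Without BDF1xCAST embryos 6 and 8, however, 6 of the 21 cell cycle genes reached an unadjusted p under 0.05 toward BDF1xCAST and 3 passed after adjustment (Aurka, Ccna2 and Ccnb1). Without CASTxBDF1 embryo 2 as well, 6 reached it and 4 passed, these 3 and Ccne1, against the same 3.96% and 6.38% of all genes. Of 7 interferon response genes, Ifitm1, Ifitm2 and Ifitm3 reached an unadjusted p under 0.05 toward BDF1xCAST, with edgeR adjusted p of 0.0677, 0.173 and 0.239.

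Of 13 p53 target genes, 11 reached an unadjusted p under 0.05 toward CASTxBDF1, with a median log2 difference of 0.96, but CASTxBDF1 embryo 2 carried much of it. Cdkn1a, the inhibitor of cyclin-dependent kinases that p53 induces, had 2.96 to 14.0 CPM with a median of 7.15 in BDF1xCAST, and 21.8, 215, 10.5 and 11.5 CPM in CASTxBDF1 (edgeR adjusted p 0.0712). Ccng1, another direct target, had 54.6 to 104 CPM with a median of 62.5, and 90, 621, 88.6 and 84.3 CPM (edgeR adjusted p 0.186). The epiblast of that embryo was high as well, with 270 CPM of Cdkn1a and 626 CPM of Ccng1, against at most 43.4 and 88.4 CPM in the other 10 embryos. Without this embryo, 5 of the 13 genes reached an unadjusted p under 0.05 and the median was 0.47. Without BDF1xCAST embryos 6 and 8 as well, the median was 0.50, and 6 genes were higher and 2 (Aen and Plk2) lower at an unadjusted p under 0.05. Cdkn1a, Ccng1 and Btg2 then passed after adjustment, all higher in CASTxBDF1, as 6.38% of all genes did in either direction. CASTxBDF1 embryo 2 was also the only male of its cross, and with a term for sex the median was 1.09 and 10 of the 13 reached an unadjusted p under 0.05. The same ExE library held 3502 CPM of trophoblast differentiation markers (911 to 2637 CPM in the other 10), 52.9 CPM of parietal endoderm markers (128 to 192 CPM), 58.6 CPM of primitive streak genes (104 to 196 CPM) and 442 CPM of epiblast markers (537 to 1243 CPM). The part of these differences in the p53 targets was not tested.

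**Figure D5:**
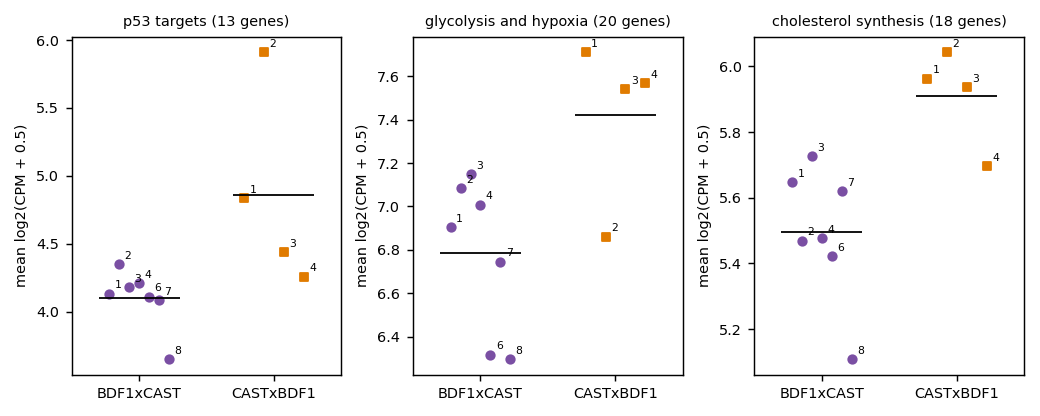
Mean log2(CPM + 0.5) over the tested genes of 3 lists (y axis) in each library, with embryo numbers beside the points and black lines at the means of the crosses. CASTxBDF1 embryo 2 is the highest point for p53 targets and the lowest of its cross for glycolysis and hypoxia, and BDF1xCAST embryos 6 and 8 are the lowest for glycolysis and hypoxia.

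The difference between the crosses itself did not differ detectably between the tissues. The tissue by cross term, with a term for each embryo, passed for 0 of 10617 genes (edgeR), of which 604 had an unadjusted p under 0.05. Without a filter on low counts it passed for 47 genes.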

How the data were processed

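Members, gene lists and tests were chosen with earlier results of these data known. SMART-Seq v4 cDNA and Nextera XT libraries were sequenced in pairs on a NovaSeq, per the labels' protocols. The submitters' processing notes name STAR 2.5.0, HTSeq and the build mm10. Their roles, the polymorphisms and the use of strand are not given in the sources used here. Per the file headers, the authors deposited for each gene and library a count of reads over polymorphisms, summed over both alleles and not normalized, a ratio (0.5 for all CAST, -0.5 for all BDF1) and a score for allelic bias (the negative log10 of a binomial p-value). In the values, the ratio is rounded to whole percentage points and the score is signed and at 0 under 10 reads. All columns were mapped to samples (0 left over).

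The count of each allele was recovered as the whole number that fitted both ratio and score. This matched 99.5% of the 101495 ExE values with at least 10 reads. The other 552 values, with 6.86% of ExE reads, rest on the rounded ratio, so shares of the most abundant genes are exact only to whole percentage points. The allelic test took genes reaching 10 reads in 3 or more libraries per cross. The edgeR 4.0.16 quasi-likelihood test used a column per library and allele, terms for library, maternal allele and BDF1 allele, and no scaling between alleles. Total reads were scaled by TMM after filterByExpr. Tests were two-sided with Benjamini-Hochberg adjustment over all genes tested, threshold 0.05, and were checked on simulated data. CPM is the count scaled to the total of its library. mm10 is the genome of C57BL/6, an ancestor of BDF1, and BDF1 alleles had the larger share in every library. The part of alignment in that was not tested. Replicates are single embryos.

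All genes called imprinted and all list members may be named. Values per library are given for the 4 genes with the most reads of each imprinted class, the 5 largest partial parental ratios in each direction, the 5 largest strain ratios in each direction among called genes with at least 50 reads, up to 10 changes in total reads in each direction without overlap and with at least 5 CPM in 1 cross, and the 5 genes with the largest spread of the BDF1 share among genes with at least 100 reads in all 11 libraries. T, Igf2, Ankrd37, Slc2a1, Fdps, Cdkn1a, Ccng1, Btg2 and Trp53inp1 were given values per library after these were seen. Alternatives covered read minimum, scaling, centring of BDF1 against CAST, tool (limma 3.58.1, DESeq2 1.42.0), sex, replicate block and each library left out. Those without embryos that stand apart were chosen after seeing the data. Sequences are from RefSeq, GRCm38.p6. X-linked genes were left out except in 1 alternative.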

Additional observations from a re-analysis of the deposited data

Results flagged for a closer look

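In 24 of 88 groups of 4 or 7 libraries a single library lay far from the rest of its cross. The limit used is one that chance passes in about 1 of 20 groups of continuous values, a rate that does not hold for the many groups here whose shares are tied at 0% or 100% or rounded. For maternal shares they were H19 in CASTxBDF1 embryo 2 (99%), Phlda2 in BDF1xCAST embryo 6 (93.0%), Ascl2 in BDF1xCAST embryo 8 (97.6%), Cd81 in BDF1xCAST embryo 2 (91.8%) and Gm33682 in BDF1xCAST embryo 2 (99.1%). Among paternally expressed genes they were Peg3 in BDF1xCAST embryo 3 (9.82%) and CASTxBDF1 embryo 4 (0.735%), Mcts2 in BDF1xCAST embryo 2 (3.00%) and CASTxBDF1 embryo 4 (3.03%), Sfmbt2 in BDF1xCAST embryo 2 (0.199%) and Gm13261 in BDF1xCAST embryo 4 (1.92%) and CASTxBDF1 embryo 4 (3.12%). Gm32885 stood out in BDF1xCAST embryo 8 (7.00%) and in CASTxBDF1 embryo 2 (25.0%). For BDF1 shares they were Ccl9 in CASTxBDF1 embryo 4 (0.282%), Gm6485 in BDF1xCAST embryo 4 (0.532%) and Gm40123 in CASTxBDF1 embryo 3 (2.08%).

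In total reads, BDF1xCAST embryo 8 stood above its cross for the overlapping Gm31704 (42.2 CPM) and Ston1 (42.9 CPM). CASTxBDF1 embryo 2 stood above its cross for 4 p53 targets, Cdkn1a (215 CPM), Ccng1 (621 CPM), Btg2, an antiproliferative gene (164 CPM), and Trp53inp1, a stress-induced partner of p53 (44.1 CPM). Trp53inp1 was also high in BDF1xCAST embryo 6 (11 CPM).

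The parental log2 ratio differed between ExE and epiblast by a tested interaction (edgeR adjusted p under 0.05) for 21 genes described above. Where the ExE ratio was shifted toward the mother, the difference was 4.44 for H19, 3.56 for Phlda2, 6.28 for Ascl2, 5.95 for Cd81, 7.06 for R74862, 4.55 for Tssc4, 2.96 for Impact, 1.51 for T, 1.38 for Inpp5f, 2.33 for Pnldc1, 2.21 for Apoc2 and 1.94 for Apoc4-apoc2. Where it was shifted toward the father, the difference was -11.01 for Sfmbt2, -3.88 for Gab1, -3.60 for Jade1, -2.03 for 2400006E01Rik, -1.72 for Platr4, -1.65 for Slc38a1, -2.57 for 2410003L11Rik, -1.26 for Vrk3 and -1.16 for Bbx. Fitted ratios of nearly silent alleles depend on the prior count and are not bounds on the difference.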

How the results depend on the processing

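The main counts were 72 parental, 43 imprinted, 773 strain, 22 total-read and 24 tissue-dependent parental genes. With a minimum of 50 reads, which tests fewer genes, the parental, imprinted, strain and tissue counts were 46, 28, 409 and 11. Without a filter there were 155 parental and 1262 strain genes, 66 genes in total reads and 47 for the tissue by cross term. Limits of 80% and 20% left 370 strain genes. In total reads, a sex term gave 41 genes, females alone 0, X-linked genes included 101 and DESeq2 186. Without BDF1xCAST embryos 6 and 8 total reads gave 358 genes, and without CASTxBDF1 embryo 2 as well 588. Both fits leave the sexes of the crosses more uneven. Leaving out 1 library gave 64 to 73 parental, 38 to 43 imprinted, 694 to 770 strain, 2 to 64 total-read and 14 to 24 tissue-dependent genes. The cause of these changes was not tested.

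Embryo numbers did not pair the crosses. Deviations of embryos with the same number correlated at -0.024, -0.21, -0.045 and 0.30 for numbers 1 to 4, and 1 of the 4 CASTxBDF1 embryos was closest to its own number. A replicate block over these numbers gave 46 parental, 34 imprinted, 772 strain and 53 total-read genes. Under it the parental log2 ratio changed sign for Apoc2 (-0.44) and Apoc4-apoc2 (-0.56). Depth limits the genes under about 20 reads per library, whose shares move by several percentage points with 1 read.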

Other observations

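Of 3013 autosomal genes with at least 100 reads in all 11 ExE libraries, the median SD of the BDF1 share within a cross was 3.78 percentage points. The 5 largest were those of Fhl2, Hspa8, Wdfy1, Zfp277 and Trmo. Fhl2 (chromosome 1, 43123071 to 43198299), a LIM-domain protein, had an SD of 28.7. Its BDF1 share was 74.1%, 26.8%, 27.1%, 75.0%, 34.2%, 79.6% and 80.9% in BDF1xCAST embryos 1, 2, 3, 4, 6, 7 and 8, and 26.2%, 19.2%, 81.9% and 79.2% in CASTxBDF1 embryos 1 to 4. In the epiblast of the same embryos it was 92.0%, 25.3%, 12.5%, 93.0%, 9.26%, 93.0% and 86%, and 8.16%, 7.35%, 91.4% and 90.8%. The embryos above 50% in ExE were the same as those above 50% in epiblast.

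Hspa8 (chromosome 9, 40801273 to 40805199), a constitutive heat shock protein, had an SD of 26.3 and BDF1 shares of 27.2%, 32.8%, 28.8%, 73.1%, 81.2%, 32.6% and 75.9%, and 77.2%, 76.9%, 30.0% and 24.9%. Its epiblast shares were 81.0% to 84.3% in the 5 embryos high in ExE and 38.2% to 50.0% in the other 6. Wdfy1, an endosomal protein, ran from 2.17% to 57.8% BDF1 reads, with 4 embryos above 40% (BDF1xCAST 3, 4 and 7, and CASTxBDF1 4), and these were also the 4 above 50% in epiblast. Zfp277 was above 50% in BDF1xCAST embryos 1, 3 and 6 and in CASTxBDF1 embryo 1, in both tissues. Trmo ran from 14.7% to 59.4%, and of its 5 embryos above 50% in ExE, BDF1xCAST embryo 1 and CASTxBDF1 embryo 4 (59.4% and 55.8%) were below 50% in epiblast (46.0% and 42.4%). All 5 genes had high and low embryos in both crosses.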
